A study of Mus musculus with 20 samples.

Results

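The replication-dependent histone genes were followed in the mouse hippocampus, the protein-coding genes of the clusters Hist1 to Hist4 that encode histones H1, H2A, H2B, H3 and H4. Members were chosen by name, as protein-coding rows whose gene name starts with Hist1h, Hist2h, Hist3h or Hist4h. The deposited table carries mostly newer symbols, so that only 3 rows (Hist1h4m, Hist1h4n and Hist1h2bp) matched by the name as deposited, and the names of GENCODE release M21 for the same gene identifiers were used, which gave 44 members among 25190 genes. Release M21 holds 67 such genes, and 23 of them have no row in the table. The table leaves out genes with a summed count under 10, and whether this removed all 23 was not checked. Levels, medians and shares of counts below refer to the 44 members and not to the whole family. Genes are given by their deposited symbol, with the older name at first mention.

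RNA was sequenced from the hippocampus of wild-type C57BL/6JOlaHsd male mice, 4 months old by the labels (CA1 by the series description), with 5 libraries in each of 4 groups. Vehicle mice were infused in the hippocampus with artificial cerebrospinal fluid. Control mice were given small RNAs (sRNAs) pooled from the hippocampus of people without psychiatric illness, and the mice of Pool 1 and Pool 2 sRNAs from separate cohorts of patients with schizophrenia. Each pool was a single preparation given to all mice of its group, so the 5 libraries replicate the infusion and not the donors, and all groups share the cannula and the behavioural testing that preceded tissue collection. Bulk tissue was measured, in which fewer cells of a type and less RNA per cell cannot be told apart.

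Replication-dependent histones package newly made DNA, and in dividing cells their mRNAs are made in S phase. Unlike other mRNAs they normally carry no poly(A) tail. They end shortly after a conserved stem-loop, which is bound by SLBP and processed with the U7 snRNP, while NPAT drives their transcription. In non-dividing cells such as neurons, some of these genes also give polyadenylated transcripts that run beyond the stem-loop, and nucleosomes are otherwise maintained with replacement histones such as H3.3 and H2A.Z. Libraries here were selected for poly(A), so the values below count transcripts that passed this selection and not the whole pool of histone mRNA.

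The stem-loop was searched in the sense strand of the annotated transcripts as GGNNC, TTTT and NAGNNCC in direct succession, where N is any base. It was found in 44 of the 67 histone genes of release M21 (65.7%), against 28 of 21834 other protein-coding genes (0.128%). Among the 44 measured members, 32 held it, 17 of them as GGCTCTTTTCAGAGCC and 7 as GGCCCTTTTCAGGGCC. The site is printed here for members on which the results turn, with the stem-loop in capitals and the bases that flank it in lower case. The first 3 are highly counted, the next 3 changed past the threshold in Pool 1 mice, and the last ends close behind the stem-loop.
H1f2: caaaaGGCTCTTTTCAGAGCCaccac
H2bu2: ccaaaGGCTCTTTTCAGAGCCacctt
H2aw: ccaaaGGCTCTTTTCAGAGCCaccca
H3c15: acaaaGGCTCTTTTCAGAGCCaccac
H4c9: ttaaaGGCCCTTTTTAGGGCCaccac
H4c11: ctaaaGGTCCTTTTCAGGACCaccac
H4c8: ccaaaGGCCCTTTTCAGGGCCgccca
In GRCm38, the stem-loop lies in the annotated 3′ UTR of the single exon of each of these genes. It was at chr13:23739512-23739527 (plus strand) in H1f2 (Hist1h1c), the linker histone H1.2. In the core histone genes H2bu2 (Hist3h2ba) and H2aw (Hist3h2a) it was at chr11:58949349-58949364 (plus strand) and chr11:58955172-58955187 (plus strand). In H3c15 (Hist2h3c2) it was at chr3:96238485-96238500 (minus strand). The H4 genes held it at chr13:22040966-22040981 (minus strand) in H4c9 (Hist1h4i), at chr13:21735437-21735452 (plus strand) in H4c11 (Hist1h4j) and at chr13:23531458-23531473 (plus strand) in H4c8 (Hist1h4h). The annotated transcript went on for 840 bases past the stem-loop in H1f2, 1643 in H2aw, 377 in H3c15, 385 in H4c11, 330 in H4c9 and 169 in H2bu2, but for only 46 in H4c8.

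Histone transcripts were a small part of the libraries. Total counts ranged from 20588280 to 25543939 per library, of which the 44 members together took 1666 to 3272 counts, or 0.00732% to 0.0128%. The 6 members with the highest CPM (counts relative to library size, scaled by edgeR's TMM factors) held 77.8% to 88% of these counts. Of all members, 20 had a count in every library and 16 a mean of at least 10 counts. For 21 members the mean was under 3 counts, the floor used here, which corresponds to 0.117 to 0.146 CPM. For these no direction can be read. All 11 markers of hippocampal neurons were measured, with a summed level of 6394 to 9014 CPM. The library Pool 2 replicate 1 stood apart in its microglial markers, at a summed 2167 CPM against 532 to 930 elsewhere, and Vehicle replicate 4 in its choroid plexus markers, at 8856 CPM against 91 to 2262.

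Levels were compared between genes as CPM per kb of the longest annotated transcript, averaged over the 20 libraries. H2bu2, at 20.9 ± 3.54 (SD, n = 20), and H2bc4 (Hist1h2bc), another H2B gene, at 20.6 ± 3.97, stood at the top and did not differ beyond their spread. H1f2 was next at 14.4 ± 3.3, followed by H2aw at 5.45 ± 0.658 and H4c8 at 4.68 ± 2.6, which again overlapped. H2bc21 (Hist2h2be) reached 3.37 ± 0.204, H4c12 (Hist1h4k) 3.27 ± 1.38, H4c9 2.8 ± 0.686 and H2bc6 (Hist1h2be) 2.41 ± 0.508. H3c15, the highest H3 gene, reached 1.58 ± 0.557, H2bc8 (Hist1h2bg) 1.22 ± 0.422 and H4c14 (Hist2h4) 1.18 ± 0.383. From H2bc21 down, only H2bc6 and H3c15 were neighbours further apart than either SD, which here spans all 4 groups. That gap and the rank of H2bc6 depend on the length used. Per kb of exon union, the length of all its exons together, H2bc6 stood at 1.36, below H3c15 at 1.58. These 12 members were all that reached 1 CPM per kb. The 30 members that are not described singly lay between 0.0183 and 0.69 CPM per kb. The only member of the Hist4 locus, H4f16 (Hist4h4), stood at 0.0521.

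Levels were set beside the annotated 3′ end. Transcripts that run more than 100 bases past the stem-loop belonged to 19 members, which had a median of 0.646 CPM per kb (range 0.0183 to 20.9) and held 63.5% of all histone counts. Another 32.1% fell on 5 members without a stem-loop match but with a longer annotated end, nearly all of it on H2bc4 and H2bc21, while the median of the 5 was only 0.118 CPM per kb. In H2bc4 the annotated transcript is spliced to a distant exon behind the stop codon and ends 742 bases after the stop, and in H2bc21 the end lies 2192 bases after it. The 13 members that end at the stem-loop had a median of 0.0932 CPM per kb and 3.09% of the counts. Ending at the stem-loop here means at most 100 annotated bases behind it, from 3 in Hist1h4m to 57 in H2ac20. It is not a measured end of the RNA. The 7 members whose annotation stops at the stop codon had a median of 0.154 and 1.38% of the counts. H4c8 in the first of these groups and H4c12 in the second were the exceptions, with 51.1 and 23.9 mean counts per library. This is a description across genes, which are not replicates, and the annotated lengths enter both the classes and the level per kb. Of the 19 members, 14 kept their class when only GGCNC, TTTT and CAGNGCC in succession, the letters most members share, was accepted as the stem-loop.

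**Figure D1:**
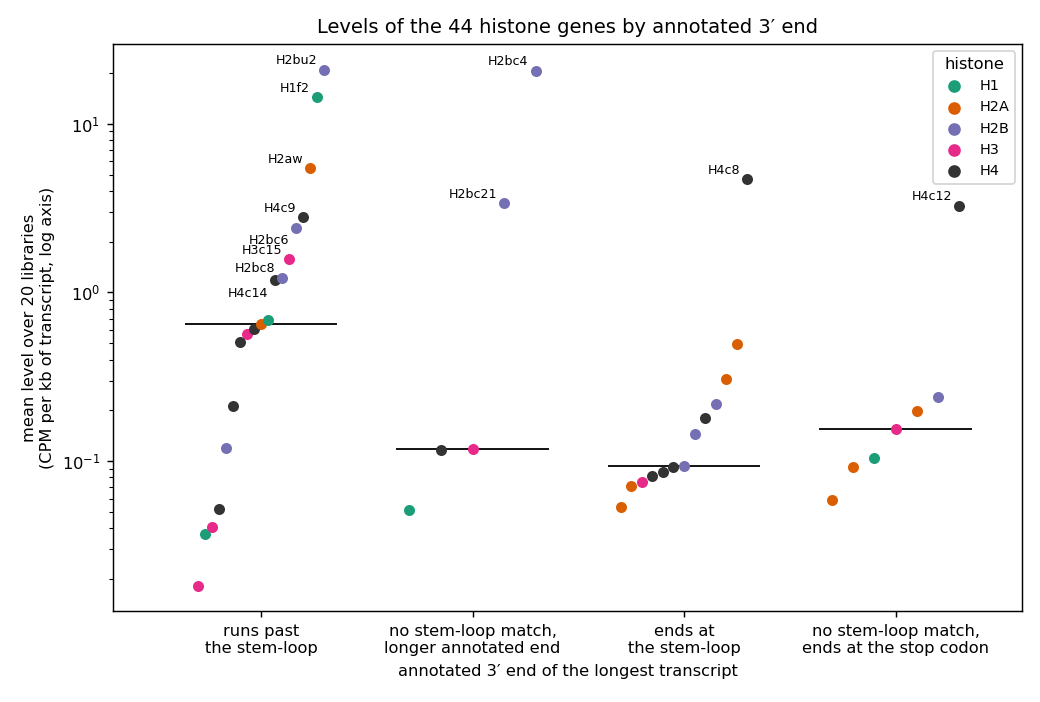
Mean level of each of the 44 histone genes over 20 libraries (CPM per kb of the longest transcript, log axis) by annotated 3′ end. The end was read from any transcript of the gene, which in Hist1h2bp was not its longest. Points are genes coloured by histone family, lines are medians, and genes of at least 1 CPM per kb are named. The median is 0.646 for genes annotated past the stem-loop and 0.0932 for genes that end at it, with H4c8 far above the rest of its class.

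Copies of these genes are similar, and the authors counted reads that align to 1 place. Every 50-base stretch of a member's transcript was therefore compared with all other annotated transcripts. At least 80% of the stretches were unique to the gene in 12 members and under 50% in 16. H2bc21 was unique throughout (100%), H1f2 at 91.5%, H2bc6 at 83.7%, H2bu2 at 77.9%, H4c11 at 75.4%, H4c9 at 71.1% and H2bc4 at 69.4%. H4c8 reached 54.2% and H3c15 36.5%, H4c12 28.5% and H2ac19 (Hist2h2aa2) 0%, so that their levels are uncertain and in part depend on which copy received a read. Members that end at the stem-loop had a median of 42% unique stretches, against 77.9% for those that run past it. The part of unique alignment in the difference of level between the classes was not tested. The H2bc6 model, chr13:23583670-23621124, also overlaps H1f4 (Hist1h1e), chr13:23620629-23622558, on the same strand, where a read cannot be assigned to either.

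By histone, the 10 H2B genes held 51.6% of the counts, the 5 H1 genes 23.7%, the 9 H2A genes 13.7%, the 13 H4 genes 8.54% and the 7 H3 genes 2.49%. The share of H1 was almost all H1f2, since H1f4 had a mean of 31.1 counts and the median H1 gene 6.45. By locus, 35 genes of Hist1 on chromosome 13 held 63.3% of the counts and the 2 genes of Hist3 on chromosome 11 held 24%. The 6 genes of Hist2 on chromosome 3 held 12.5% and H4f16 on chromosome 6 held 0.149%. The replacement histone genes were higher than most members on the same scale, at 61.5 CPM per kb for H3f3b, which encodes H3.3, 50.7 for H2az1, which encodes H2A.Z, and 48.1 for the linker histone gene H1f0. The lowest of the 10 replacement genes, Macroh2a2, reached 5.84 CPM per kb, above 41 of the 44 members.

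In 3 places an H2A gene and an H2B gene start within 500 bases of each other in opposite directions. In the 2 pairs in which a gene was counted above the floor, the H2B gene was higher. H2ac6 (Hist1h2ac) stood at 0.646 and H2bc4, which starts 250 bases away, at 20.6 CPM per kb. H2ac20 (Hist2h2ac) stood at 0.0712 and H2bc21, with a gap of 238 bases, at 3.37. For H2ac15 (Hist1h2ak) and H2bc15 (Hist1h2bn), 295 bases apart, the values were 0.0587 and 0.241, from mean counts of 0.55 and 2.15 per library, both under the floor.

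Promoter windows from RefSeq (GRCm38.p6) reach from 250 bases before to 50 after the start and could be matched for 37 of the 44 members. They were searched on both strands for CCAAT (the CCAAT box), TATAA (the TATA box), ATTTGCAT (the octamer known from H2A and H2B promoters) and AAACACA (the H1 box). CCAAT was present in 30 member windows (81.1%) and in 37.4% of all 32851 windows. TATAA was present in 30 (81.1%) and in 24.9% of all. The octamer was present in 7 (18.9%) against 1.74%, all of them H2A or H2B genes, and AAACACA in 5 (13.5%) against 7.18%, of which 4 were H1 genes. CCAAT was found in all H1, H2A, H2B and H3 windows and in 3 of 10 H4 windows. A match counted anywhere in the window, also after the start and on either strand, so these shares do not give its position. TATAA lay 31 bases before the start in H4c9, for example, but 250 bases before it in H4c6. These matches are descriptions of the windows and not sites of binding.

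The windows before the start are printed for H2ac6, from the best counted of these pairs, and for H2bu2, the member that passed in Control against Vehicle. Matches on either strand are in capitals. No window was matched for H2bc4, the partner of H2ac6. The window of H2ac6, on the minus strand at chr13:23683960-23684209, reads towards H2ac6 and covers most of the gap to H2bc4 and the first bases of that gene.
H2ac6: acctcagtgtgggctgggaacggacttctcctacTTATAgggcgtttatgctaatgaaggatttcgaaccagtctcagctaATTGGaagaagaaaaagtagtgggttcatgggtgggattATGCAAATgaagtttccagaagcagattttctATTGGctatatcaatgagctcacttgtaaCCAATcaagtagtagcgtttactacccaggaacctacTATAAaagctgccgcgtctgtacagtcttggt
H2bu2: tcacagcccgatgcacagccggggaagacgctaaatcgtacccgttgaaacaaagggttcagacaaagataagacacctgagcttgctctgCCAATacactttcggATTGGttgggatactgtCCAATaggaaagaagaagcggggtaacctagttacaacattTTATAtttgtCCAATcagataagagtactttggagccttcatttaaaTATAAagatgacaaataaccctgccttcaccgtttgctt
The window of H2ac6 held 3 CCAAT matches, 1 octamer and 2 TATA matches. Of the TATA matches, 1 lies 32 bases before the start of H2ac6 and the other, on the opposite strand, on the side of H2bc4. The window of H2bu2, on the plus strand at chr11:58948661-58948910, held 4 CCAAT matches and 2 TATA matches, 1 of them 39 bases before the start and the other, on the opposite strand, 86 bases before it.

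Pool 1 mice were compared with Control mice to ask how sRNAs from the first cohort of patients change these genes relative to sRNAs from controls. The comparison used edgeR's quasi-likelihood test over all 25190 genes and the threshold of the study, a log2 fold change of 0.3 or more in either direction with an unadjusted p-value under 0.05. In Pool 1 mice 4 of the 44 members were lower past this threshold and none was higher. Over all genes, 1.99% were lower and 1.48% higher. Called members made up 9.09% of the list. The median log2 fold change of the members was −0.16, with 26 negative and 18 positive, against −0.005 over all genes. Of the 16 members with a mean of at least 10 counts, 14 were negative and 2 positive. Positive values made up 48.9% of all genes. No member had an adjusted p-value under 0.05 in any of the 4 comparisons, in edgeR (lowest 0.425) or in DESeq2 (lowest 0.355). In Pool 1 against Control 5 members had an unadjusted p under 0.05 in edgeR and 6 in DESeq2, of which 5 were past the threshold.

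H2bc4, the member with the most counts, was measured at 19.5, 16.9, 19.2, 21.1 and 22.8 CPM in Pool 1 mice and at 34, 32.2, 23.8, 19.2 and 23.6 CPM in Control mice. The groups overlapped, with 2 Control libraries far above the other 3. Its log2 fold change was −0.42 (SE 0.14, unadjusted p = 0.00653, adjusted p = 0.917 in edgeR), and the exact two-sided permutation test gave p = 0.0476. Without Control replicate 1 the log2 fold change was −0.31, the smallest over all left-out libraries, and it stayed past the threshold in all 20 of them.

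H3c15 encodes a core histone H3 and stood at 0.769, 0.852, 1.94, 1.08 and 0.997 CPM in Pool 1 against 2.55, 2.74, 2.3, 1.35 and 1.59 CPM in Control. Of the 5 Pool 1 libraries, 4 were below every Control library. The log2 fold change was −0.91 (SE 0.27, unadjusted p = 0.00275, adjusted p = 0.917 in edgeR), with an exact permutation p of 0.0317. Without Pool 1 replicate 3, the high library, it was −1.18.

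The remaining calls were H4 genes. H4c9 measured 1.34, 1.75, 1.26, 0.991 and 2.24 CPM in Pool 1 and 2.46, 2.3, 2.62, 2.15 and 1.81 CPM in Control, again with 4 libraries below the Control range. It had a log2 fold change of −0.58 (SE 0.21, unadjusted p = 0.0129 in edgeR; exact permutation p = 0.0317). H4c11 was near the floor, at 0.283, 0.179, 0.34, 0.215 and 0.249 CPM in Pool 1 and 0.492, 0.714, 0.506, 0.437 and 0.221 CPM in Control. Its log2 fold change of −0.90 (SE 0.38, unadjusted p = 0.0268 in edgeR) lost its call when Control replicate 2, Pool 1 replicate 2 or Pool 1 replicate 4 was left out, reaching −0.70 without the first of these.

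Other members of high level did not pass. H2bu2 had a log2 fold change of −0.26 (SE 0.12) with an unadjusted p of 0.0414 and so missed only the fold threshold. H2bc6 had −0.36 (SE 0.18, unadjusted p = 0.0517). H1f2 had −0.20 (SE 0.20), with Pool 1 libraries from 13 to 28.4 CPM around Control libraries from 19.2 to 24.1 CPM. H2aw had −0.19 (SE 0.12) and H2bc21, the least variable member, −0.13 (SE 0.09). H4c8, H4c12 and H2bc8 had −0.61 (SE 0.43), −0.57 (SE 0.39) and −0.47 (SE 0.36), H4f16 −0.51 (SE 0.69), and H4c14 was the exception in sign at 0.23 (SE 0.27). That sign rests on Pool 1 replicate 1, at 3.8 CPM against 1.2 to 2.51 CPM in the other Pool 1 libraries: without it H4c14 had −0.04 and H4f16 −1.41. The summed level of the 44 members was 90.1 ± 9.82 CPM in Pool 1 and 110 ± 15.8 CPM in Control (SD, n = 5).

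RNAs that lack a poly(A) tail differed between these groups. All 6 that were measured were higher in Pool 1 than in Control. Among them, Gm42418 had a log2 fold change of 2.64 (SE 0.66) and Rn7sk, the 7SK RNA, 3.10 (SE 0.85). The summed level of the 6 was 1534 to 12605 CPM in Pool 1 and 477 to 1582 CPM in Control. With the level of these RNAs as a covariate in the fit, H3c15 had −0.64 (unadjusted p = 0.0912), H4c9 −0.46 (unadjusted p = 0.133) and H4c11 −0.72 (unadjusted p = 0.197 in edgeR), none past the threshold. H2bc4 still passed there, at −0.44 (unadjusted p = 0.0353 in edgeR). In that fit 6 members passed, 5 of them lower, among them H4c12 at −1.28 (unadjusted p = 0.018 in edgeR). The covariate itself differed between Pool 1 and Control, so this fit cannot tell it apart from the pool. The part of these RNAs in the lost calls was not tested.

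Pool 2 mice were compared with the same Control libraries for the second cohort. None of the 44 members passed the threshold in either direction, where 5.2% of all genes were higher and 1.01% lower, and no member had an unadjusted p under 0.05 in edgeR or a call in DESeq2. The median log2 fold change was −0.02 with 20 members positive, against 0.003 over all genes. Of the 16 members with a mean of at least 10 counts, 13 were negative and 3 positive. Positive values made up 50.7% of all genes. The better counted members thus leaned the same way as in Pool 1, against the same Control libraries. H2bc4 measured 29, 18.7, 27, 19.6 and 23.7 CPM, within the Control range but for 1 library, with −0.17 (SE 0.14). H3c15 measured 2.38, 1.44, 1.83, 0.96 and 1.37 CPM with −0.40 (SE 0.26), H4c9 had −0.01 (SE 0.21) and H4c11 −0.03 (SE 0.35). H1f2 had 0.19 (SE 0.20), with 4 of 5 Pool 2 libraries above all Control libraries and the fifth at 19.7 CPM. H2bu2 had −0.21 (SE 0.12). With Pool 2 replicate 1 and Vehicle replicate 4 left out, H3c15 passed as lower at −0.58 (unadjusted p = 0.0444 in edgeR), together with H2ac6, so the absence of calls rests in part on the former library. The summed level of the members was 105 ± 14.2 CPM.

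**Figure D2:**
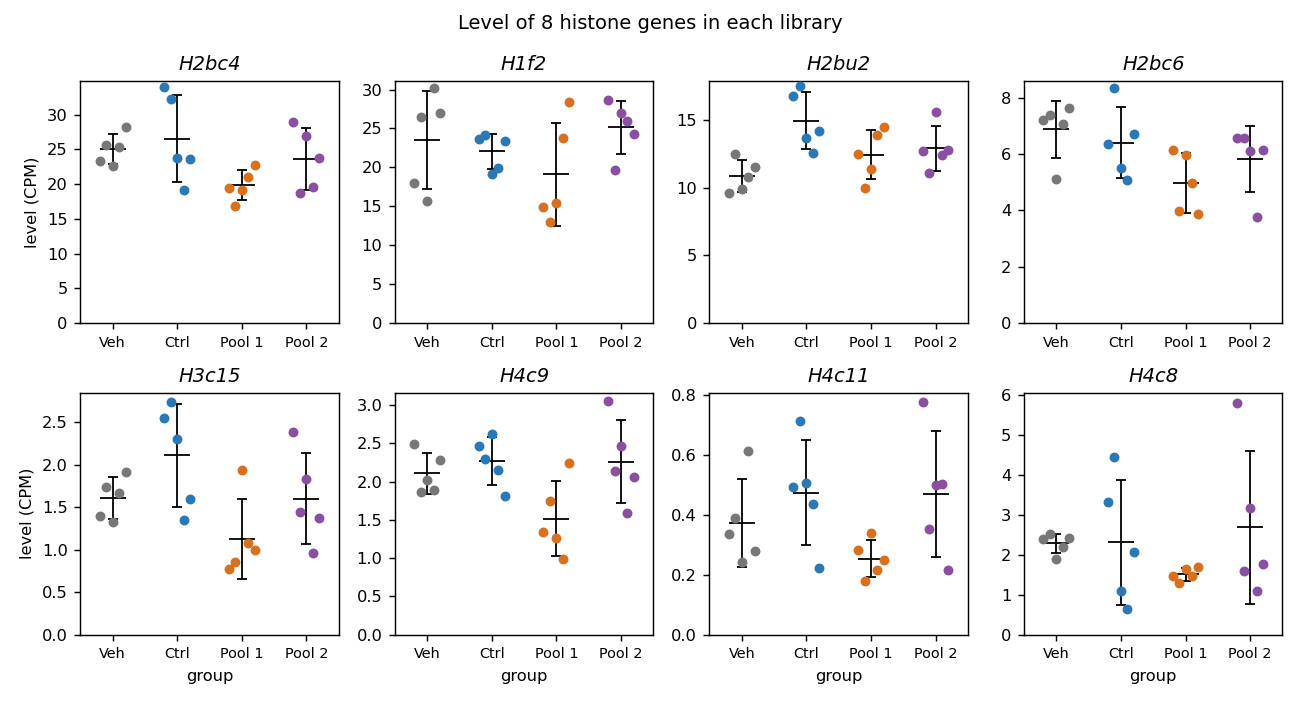
Level (CPM, axes from 0) of 8 histone genes in each of the 20 libraries, with points for libraries and bars for the mean ± SD of 5 libraries per group. In H3c15 and H4c9, 4 of the 5 Pool 1 libraries lie below all Control libraries, and in H2bu2 all Control libraries lie above all Vehicle libraries.

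Both pools were set against each other directly, since a call in one and not in the other does not show that they differ. In Pool 2 against Pool 1, 2 of the 44 members were higher and none lower, or 4.55% against 5.66% of all genes higher and 1.16% lower, a share near that of all genes. The median was 0.22, with 31 members positive, against 0.019 over all genes. Of the 16 members with a mean of at least 10 counts, 14 were positive and 2 negative. Positive values made up 53.5% of all genes. H4c9 was higher by 0.57 (SE 0.21, unadjusted p = 0.0136, adjusted p = 0.425 in edgeR), with Pool 2 libraries at 3.06, 2.14, 2.46, 1.59 and 2.06 CPM, and the exact permutation p was 0.0556. H4c11 was higher by 0.87 (SE 0.38, unadjusted p = 0.0316, adjusted p = 0.525 in edgeR), with Pool 2 libraries at 0.777, 0.351, 0.5, 0.501 and 0.215 CPM, of which 4 were above every Pool 1 library. Both had their highest value in Pool 2 replicate 1. Without that library and Vehicle replicate 4 neither passed, at 0.44 (unadjusted p = 0.0584) and 0.62 (unadjusted p = 0.116 in edgeR), and the single call was Hist1h2bp, with a mean of 1.35 counts per library.

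Of the other members, H4c8 was uneven, at 5.8, 1.6, 3.17, 1.09 and 1.76 CPM in Pool 2 against 1.46, 1.3, 1.65, 1.47 and 1.7 CPM in Pool 1. Its difference of 0.82 (SE 0.43, unadjusted p = 0.0716 in edgeR) became 0.33 without the same pair of libraries. H1f2 had 0.39 (SE 0.20, unadjusted p = 0.0606 in edgeR), H3c15 0.51 (SE 0.27) and H2bc4 0.25 (SE 0.14), none past the threshold. H2bu2, H2aw and H2bc21, which are measured with the smallest errors, had differences of 0.05 (SE 0.12), 0.03 (SE 0.12) and 0.06 (SE 0.09). The microglial markers were higher in the same comparison, 12 of 14 past the threshold, at 582 to 2167 CPM in Pool 2 and 547 to 672 CPM in Pool 1, and none of the 14 was at 0. Thalamic markers were higher too, 4 of 5, at 128 to 489 against 116 to 131 CPM, as were 3 of 5 markers of endothelium and blood, 2 of 9 of astrocytes (Gfap by 0.98 and Aqp4 by 0.49 on the log2 scale) and 1 of 7 of newborn neurons and progenitors. Their part in these differences was not tested.

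Control mice were compared with Vehicle mice for the infusion of human sRNA as such. One member passed, H2bu2, which was higher in Control, and none was lower. Over all genes 1.7% were higher and 3.41% lower, so 1 of 44 (2.27%) was near that share. H2bu2 was at 16.8, 17.5, 13.7, 12.6 and 14.2 CPM in Control and at 9.65, 12.5, 9.93, 10.8 and 11.5 CPM in Vehicle. The groups did not overlap, and the share of all genes without overlap was not counted. The means of 15 ± 2.09 and 10.9 ± 1.15 CPM (SD, n = 5) gave a log2 fold change of 0.46 (SE 0.12, unadjusted p = 0.000911, adjusted p = 0.734 in edgeR). The exact permutation test gave its smallest possible value, p = 0.00794, which any gene without overlap gives. The change stayed between 0.40 and 0.52 and past the threshold whichever library was left out. In Pool 1 the gene was at 12.5, 10, 11.4, 13.9 and 14.5 CPM and in Pool 2 at 12.7, 11.1, 15.6, 12.4 and 12.8 CPM, values that overlapped both the Vehicle and the Control range. Its neighbour H2aw on the same chromosome had 0.16 (SE 0.12), H3c15 0.39 (SE 0.26), H2bc4 0.09 (SE 0.14) and H1f2 −0.09 (SE 0.20). The median over all members was 0.09, with 26 positive, against −0.012 over all genes, and the summed level in Vehicle was 103 ± 9.62 CPM. Of the 16 members with a mean of at least 10 counts, 11 were positive and 5 negative. Positive values made up 46.8% of all genes. Rn7sk and Rny3 were lower in Control than in Vehicle, by log2 fold changes of −1.90 (SE 0.84) and −2.19 (SE 0.89), and with the covariate of RNAs without a poly(A) tail H2bu2 had 0.51.

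**Figure D3:**
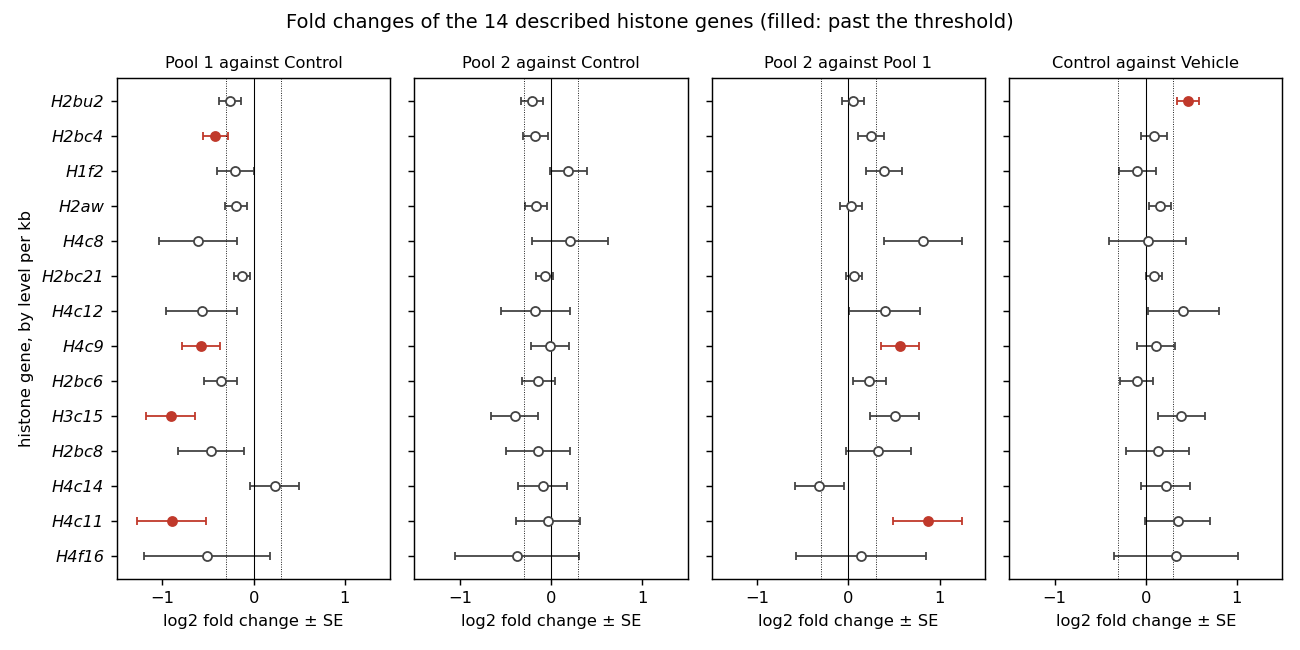
Log2 fold change ± SE from edgeR for the 14 histone genes described singly in each of the 4 comparisons, ordered by level per kb, with filled points past the threshold and dotted lines at a log2 fold change of 0.3 in either direction. Pool 1 and Pool 2 are set against the same Control libraries. In Pool 1 against Control 13 of the 14 points lie below 0, against 26 of all 44 members. Every member past the threshold is among the 14, so this tally was in part set by the choice.

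None of the 19 listed genes for histone transcription and 3′ end processing passed the threshold in any comparison in edgeR or DESeq2. At an unadjusted p under 0.05 there was 1 in Pool 2 against Control and 1 in Control against Vehicle in edgeR, and 1 and 2 in DESeq2. Against Control, Slbp, which encodes the stem-loop binding protein, stood at a log2 fold change of 0.03 in Pool 1 and of −0.04 in Pool 2 (SE 0.10 each), and Npat had −0.05 and −0.12 (SE 0.14 each). The list summed to 843 to 974 CPM over all libraries.

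Among 24 S-phase and proliferation genes none passed in either pool against Control in edgeR, with 1 in each at an unadjusted p under 0.05, and in DESeq2 1 passed in Pool 2. Mki67, which marks dividing cells, had −0.51 (SE 0.35) in Pool 1 and 0.14 (SE 0.34) in Pool 2, and Top2a, a topoisomerase of dividing cells, had −0.47 (SE 0.30) and 0.02 (SE 0.30). In Pool 2 against Pool 1 the kinase gene Cdk1 was higher by 0.89 (SE 0.34), Cdc20 by 0.60 (SE 0.26) and the replication helicase gene Mcm3 by 0.40 (SE 0.18), 3 of 24 in all. In Control against Vehicle Gmnn and Pcna, the replication clamp, were higher by 0.59 (SE 0.24) and 0.31 (SE 0.10), while Cdt1 fell by 0.53 on the log2 scale (SE 0.25). The summed level of this list was 128 to 145 CPM in Control and 109 to 136 CPM in Pool 1.

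Of 10 replacement histone genes, H3f3a was lower in Pool 1 than in Control, with a log2 fold change of −0.44 (SE 0.10, unadjusted p = 0.00027, adjusted p = 0.917 in edgeR), at 34 ± 2.93 against 46.1 ± 6.41 CPM (SD, n = 5). H3f3a and H2az1 were each higher in Control than in Vehicle by 0.33 (SE 0.10). No replacement gene passed in Pool 2 against Control or against Pool 1 in edgeR or DESeq2, and 1 and 0 had an unadjusted p under 0.05.

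**Figure D4:**
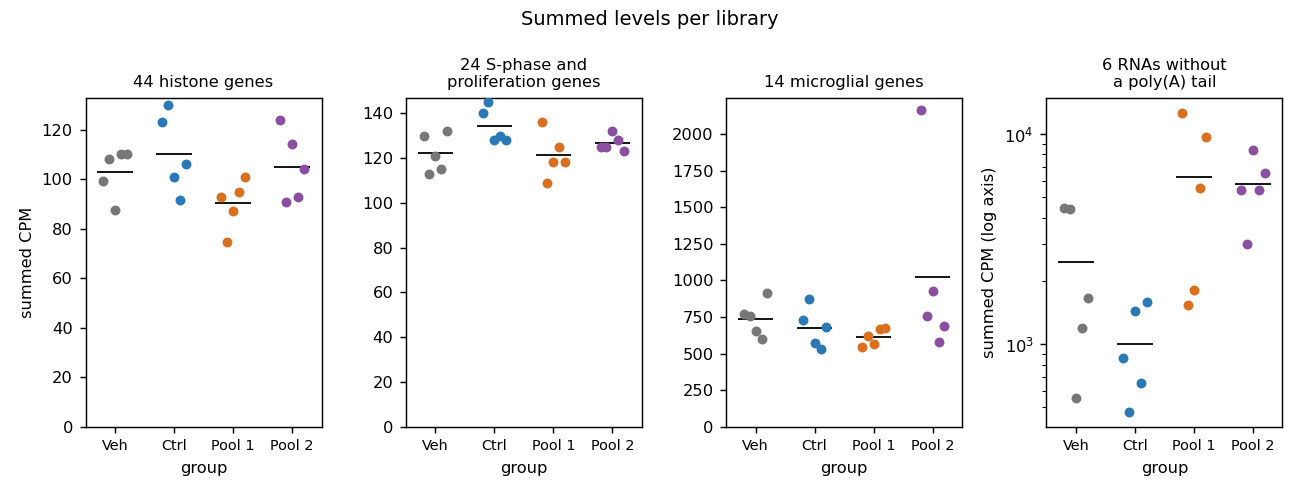
Summed CPM per library of the 44 histone genes, 24 S-phase and proliferation genes, 14 microglial genes and 6 RNAs without a poly(A) tail (log axis), with points for libraries and lines for group means. Pool 2 replicate 1 is alone at 2167 CPM in microglial genes, and the RNAs without a poly(A) tail span 477 to 12605 CPM while the histone sum spans 74.7 to 130 CPM.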

How the data were processed

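RNA of the mouse hippocampus was measured in 20 libraries. The authors selected poly(A) RNA, made stranded libraries, sequenced 50-base single-end reads on a HiSeq2500, aligned them with STAR to GRCm38 and deposited raw counts of uniquely aligned reads per gene, without normalization and with both sequencing rounds of a library in 1 column. The submitters' processing notes name FastQC 0.11.5. Genes with a summed count under 10 had been left out.

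Positions, transcript lengths and older names were taken from GENCODE release M21, which covered 99.8% of the deposited genes. The paper names an earlier release for the counting. No genome sequence was used here, so the uniqueness of stretches refers to annotated transcripts.

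Counts were tested in edgeR 4.0.16 (R 4.3.3, TMM, robust quasi-likelihood fit of 4 groups) over all genes with Benjamini-Hochberg adjustment. The standard error is the log2 fold change divided by the root of the F statistic. Exact permutation tests on CPM were two-sided. The labels give no batch, and p-values measure the spread between libraries. The edgeR fit was tested on simulated counts for Pool 1 against Control. DESeq2 1.42.0, other size factors and filters, the default spread, fits of only the groups compared, a replicate block, a covariate of RNAs without a poly(A) tail, 18 libraries and each library left out were the alternatives.

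Described singly were the 12 members with the highest CPM per kb, every member past the threshold, and the highest member of each histone and locus. From other lists, at most 3 genes past the threshold per comparison and Slbp, Npat, Mki67 and Top2a were named. Members, lists and tests were chosen with earlier results of these data known. H2ac6, H2ac15, H2ac20, H2ac19, H2bc15, H1f4, H1f0, H3f3b, Macroh2a2 and Hist1h2bp were named after their values were seen. Replicate pairs within a group gave a chi-square of 8.07 to 66.5 per degree of freedom, so none was a repeat of another. The floor of 3 counts covers counting error only.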

Additional observations from a re-analysis of the deposited data

Results flagged for a closer look

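Values far from the other 4 libraries of their group, by Dixon's test at 95%, were found 5 times among 60 groups tested, where chance flags about 1 in 20. H2bc6 was low in Pool 2 replicate 4, at 3.76 CPM against 6.12 to 6.58 CPM, and in Vehicle replicate 3, at 5.13 CPM against 7.06 to 7.63 CPM. H3c15 was high in Pool 1 replicate 3, at 1.94 CPM against 0.769 to 1.08 CPM in the other Pool 1 libraries. H2bc21 was low in Control replicate 3, at 8.7 CPM against 9.34 to 9.56 CPM, a narrow range. H4f16 was high in Vehicle replicate 1, at 0.253 CPM against 0.0931 to 0.132 CPM, all within a few counts of the floor.

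The pools differed from each other in H4c9, by 0.57 on the log2 scale, and in H4c11, by 0.87, both higher in Pool 2 in edgeR's test of that difference (adjusted p = 0.425 and 0.525, exact permutation p = 0.0556 for each). These 2 of 44 members (4.55%) are a smaller share than the 5.66% of all genes that were higher. Without Pool 2 replicate 1 neither passed, at 0.44 (unadjusted p = 0.0536 in edgeR) and 0.62 (unadjusted p = 0.126). Each was lower in Pool 1 than in Control and close to Control in Pool 2.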

How the results depend on the processing

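Counts of members past the threshold changed with single libraries. In Pool 1 against Control, 4 members passed, 3 to 6 did so under the other alternatives and 3 to 10 when 1 library was left out. The most, 10 members that were all lower, passed without Control replicate 4, 8 without Pool 1 replicate 1, and 7 without Control replicate 1, Control replicate 3, Pool 1 replicate 3 or Pool 1 replicate 5. In Pool 2 against Control the count of 0 became 2 over 18 libraries (without Pool 2 replicate 1 and Vehicle replicate 4), and 0 to 2 over the left-out libraries, with 2 without Pool 2 replicate 1 or Control replicate 1 and 1 without Control replicate 3 or Pool 2 replicate 2. In Pool 2 against Pool 1 the count of 2 became 1 with DESeq2, 1 after a filter at a mean of 10 normalized counts and 1 over 18 libraries, and 1 to 5 over the left-out libraries, with 5 without Pool 2 replicate 2 or Pool 2 replicate 4, 4 without Pool 1 replicate 1 or 5 and 1 without Pool 1 replicate 2, Pool 2 replicate 1 or Pool 2 replicate 3. In Control against Vehicle it was 1 to 2, with 2 without Control replicate 4 or 5. The cause was not tested. Of 12 members of at least 1 CPM per kb, 4 had at least 80% unique stretches, a limit set by leaving members out, and 12 remained by exon union length.

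The replicate block gave 5, 0, 3 and 1 members in these comparisons in turn, and with it H4c12 passed in Pool 1 against Control (−0.75, unadjusted p = 0.0348 in edgeR) and H1f2 in Pool 2 against Pool 1. The numbers do not pair the mice: of 30 same-number pairs, 10 had correlated deviations over 0.1 (range −0.319 to 0.278), and 1 of 20 libraries correlated best with its own number. Of 1612 fold changes of single members under an alternative, 1550 counted as unchanged. These kept their side of the threshold and, where called in neither fit, lay within 1 SE of the main value. For called ones the distance was not asked. Another 15 lost and 33 gained a call, 14 without a call moved by more than 1 SE, and none that was past the threshold changed sign. The stricter stem-loop was chosen after seeing the data. Depth limits the 28 members with a mean under 10 counts.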

Other observations

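Summed by locus, with no test, the histone genes moved unevenly between groups. The 35 genes of Hist1 summed to 68.3 ± 9.27 CPM in Vehicle, 68.7 ± 12.3 in Control, 53.9 ± 8.25 in Pool 1 and 67.9 ± 12.8 in Pool 2 (SD, n = 5). The 2 genes of Hist3 summed to 22.3 ± 1.11, 27.7 ± 3.03, 23.6 ± 2.4 and 24.4 ± 2.38 CPM in the same order, and the 6 genes of Hist2 to 12.3 ± 0.574, 13.8 ± 0.779, 12.3 ± 0.985 and 12.6 ± 1.06 CPM. Pool 1 was thus lowest at Hist1, and Control highest at Hist3 and Hist2, although the ranges of Pool 1 and Control overlapped at each locus. Control and Vehicle overlapped at Hist1. They did not at Hist3, with 23.8 to 30.8 CPM in Control and 20.9 to 23.6 CPM in Vehicle. At Hist2 they were apart too, with 13.2 to 15.1 and 11.3 to 12.8 CPM.

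The summed level of the 13 members that end at the stem-loop was uneven within Control, at 1.07 to 6.15 CPM, and Pool 2, at 1.96 to 7.18 CPM. It was less so within Vehicle, at 2.42 to 3.9 CPM, and Pool 1, at 2.02 to 3.2 CPM. Most of that sum was H4c8.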
